A study of Mus musculus with 6 samples.

Results

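The mRNAs of the nuclear genes that make up the oxidative phosphorylation system were compared between hearts of mice with heat stroke (HS) and sham hearts. The genes were chosen by name. They comprised every gene whose symbol starts with Nduf, Uqcr, Uqcc, Cox4 to Cox8 or Atp5, together with Sdha, Sdhb, Sdhc and Sdhd, and 15 genes whose symbol marks a pseudogene (-ps) were left out. This gave 108 of the 57180 genes in the deposited table. Of these, 42 belong to complex I, 4 to complex II, 8 to complex III, 21 to complex IV and 19 to complex V, and 14 are assembly factors (Ndufaf and Uqcc), which help to build complexes I and III without being part of them. Ndufa4 and Ndufa4l2 were counted with complex IV, of which NDUFA4 is a subunit. The name rule also kept some genes that GENCODE vM21 annotates as non-coding. Among those counted with complex I, it types Ndufb4c, Ndufa11b and Ndufs6b as processed pseudogenes and Ndufb1 as a long non-coding RNA. The hearts of 6 male C57BL/6N mice, 3 sham and 3 HS, each gave 1 poly(A)-selected RNA library. HS mice of 6 to 8 weeks were held at 40 °C and 60 to 65% humidity until their core temperature reached 42 °C and were then moved to the conditions of the sham mice, 22 to 25 °C at the same humidity, and both groups went without food and water. The hearts were whole-tissue samples of wild-type animals, so that fewer cells of a type and less RNA per cell cannot be told apart, and the time between 42 °C and collection is not stated in the text of the methods.

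Oxidative phosphorylation takes place in the inner mitochondrial membrane. Complexes I and II pass electrons from NADH and succinate to ubiquinone, complex III passes them to cytochrome c and complex IV to oxygen. The protons pumped on the way drive complex V, the ATP synthase. Cardiomyocytes are packed with mitochondria and obtain nearly all of their ATP in this way. Complexes I, IV and V each hold a few subunits encoded by the mitochondrial genome beside the many encoded in the nucleus, and complex III holds only cytochrome b (mt-Cytb). Complex II is built from nuclear genes only.

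Total estimated counts ran from 22098487 to 25855876 per heart, so that after TMM normalization a single count equalled 0.0361 to 0.0508 counts per 1000000 (CPM). The ventricular markers, all 10 of which passed the count filter, summed to between 45778 and 59993 CPM in the 6 hearts, so the labelled tissue carried its markers. Among them, Myl2 was at 4489 and 4751 CPM in HS hearts 1 and 3, against 5724 to 6880 CPM in the other hearts. Myl3, Pln, Actc1 and Tnni3 were also lower in HS hearts 1 and 3 than in every other heart. Myh6, Atp2a2, Tnnt2, Ryr2 and Myh7 were not. HS hearts 1 and 3 stood apart from the other 4 hearts in the atrial markers. The 7 atrial genes summed to 95.7 to 118 CPM in sham hearts and 146 CPM in HS heart 2, but to 3728 and 2834 CPM in HS hearts 1 and 3. Of these genes, Sln was at no more than 0.0399 CPM in the sham hearts and HS heart 2, against 113 and 80.4 CPM in HS hearts 1 and 3, and Bmp10 was at 0 counts in every heart but HS heart 3. Smooth muscle Myh11 was at 166 and 172 CPM in HS hearts 1 and 3, against 21.8 to 40.5 CPM in the other hearts, and the brown fat gene Ucp1 at 23.8 and 3.81 CPM, against at most 0.0429 CPM. Not all markers of these lists rose. The 9 smooth muscle and pericyte genes summed to 1303 and 1554 CPM in HS hearts 1 and 3, against 1061 to 1246 CPM in the others. Of these, Kcnj8 and Abcc9 were lower in both. The 8 fat genes summed to 414 and 422 CPM, against 302 to 431 CPM. The 5 erythroid genes summed to 616 and 1548 CPM in HS hearts 2 and 3, against 137 to 316 CPM in the other hearts. Fibroblast markers summed to 1020 to 1269 CPM in sham hearts and to 1954, 1303 and 3453 CPM in HS hearts 1 to 3. The mitochondrial ribosomal RNAs took 1.67 to 1.69% of the counts of each sham heart, against 2.75, 3.16 and 5.55% in HS hearts 1 to 3. The results below are therefore given heart by heart and also without HS hearts 1 and 3, and the part of these differences in them was not tested.

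Oxidative phosphorylation mRNAs were slightly lower in HS than in sham hearts in the comparison of all 6 hearts, their summed HS mean being 92.1% of that in sham. HS hearts 1 and 3 had the lower level and HS heart 2 lay near the sham hearts, and no single gene passed the adjusted threshold. Of the 108 genes, 101 passed the filter on low counts and were tested. Their median log2 fold change was -0.16, with a range from -0.75 for Atp5mc2 to 0.14 for Cox6b2, while the median over all 14717 tested genes was 0.01. The log2 fold change was below 0 for 96 of the 101 genes, against 48.7% of all tested genes. In edgeR's quasi-likelihood test with Benjamini-Hochberg adjustment over all genes, 0 of the 101 genes reached an adjusted p of 0.05, and the smallest adjusted p was 0.288. Across all tested genes 0.0612% did so, 0.0544% higher and 0.00679% lower. DESeq2 and limma-voom also called 0 of these genes. At an unadjusted p under 0.05, 23 genes were lower in HS hearts and 0 were higher. The same threshold was passed by 4.76% of all tested genes in the lower and 8.83% in the higher direction, and by 5.31% in the lower direction among the 6914 genes within the 10th to 90th percentile of these genes' abundance. For 38 of the 101 genes all HS hearts lay below all sham hearts, and for 0 all lay above, against 10.9% and 11% of all tested genes. With HS heart 2 as the only HS heart, 5 genes were lower and 2 higher at an unadjusted p under 0.05, beside 5.76% and 6.12% of all genes, and the median was -0.03. With the atrial markers as a covariate, 0 genes were lower, beside 1.75% of all genes, and the median was -0.03. The atrial markers were high in HS hearts 1 and 3 only, so this fit tells them from the group only through HS heart 2. By complex, the medians without HS hearts 1 and 3 ran from -0.058 in complex V to 0.013 in complex I, with -0.013 in complex III. Leaving out HS heart 2 gave 54 lower genes (53.5%) against 8.10% of all genes, and leaving out HS heart 1 gave 4 (3.96%) against 4.37%. Leaving out HS heart 3 gave 27 (26.7%) against 6.72%. Without sham heart 1, 2 or 3 the share of lower genes was 0.990, 3.96 or 2.97%, against 2.31, 2.35 or 2.87% of all genes. The share of lower genes therefore depended on which heart was left out. It stayed far above the background without HS heart 2 or HS heart 3 and was nearer to it without sham heart 2 or 3. Without HS heart 1 or sham heart 1 it was below the background.

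**Figure D1:**
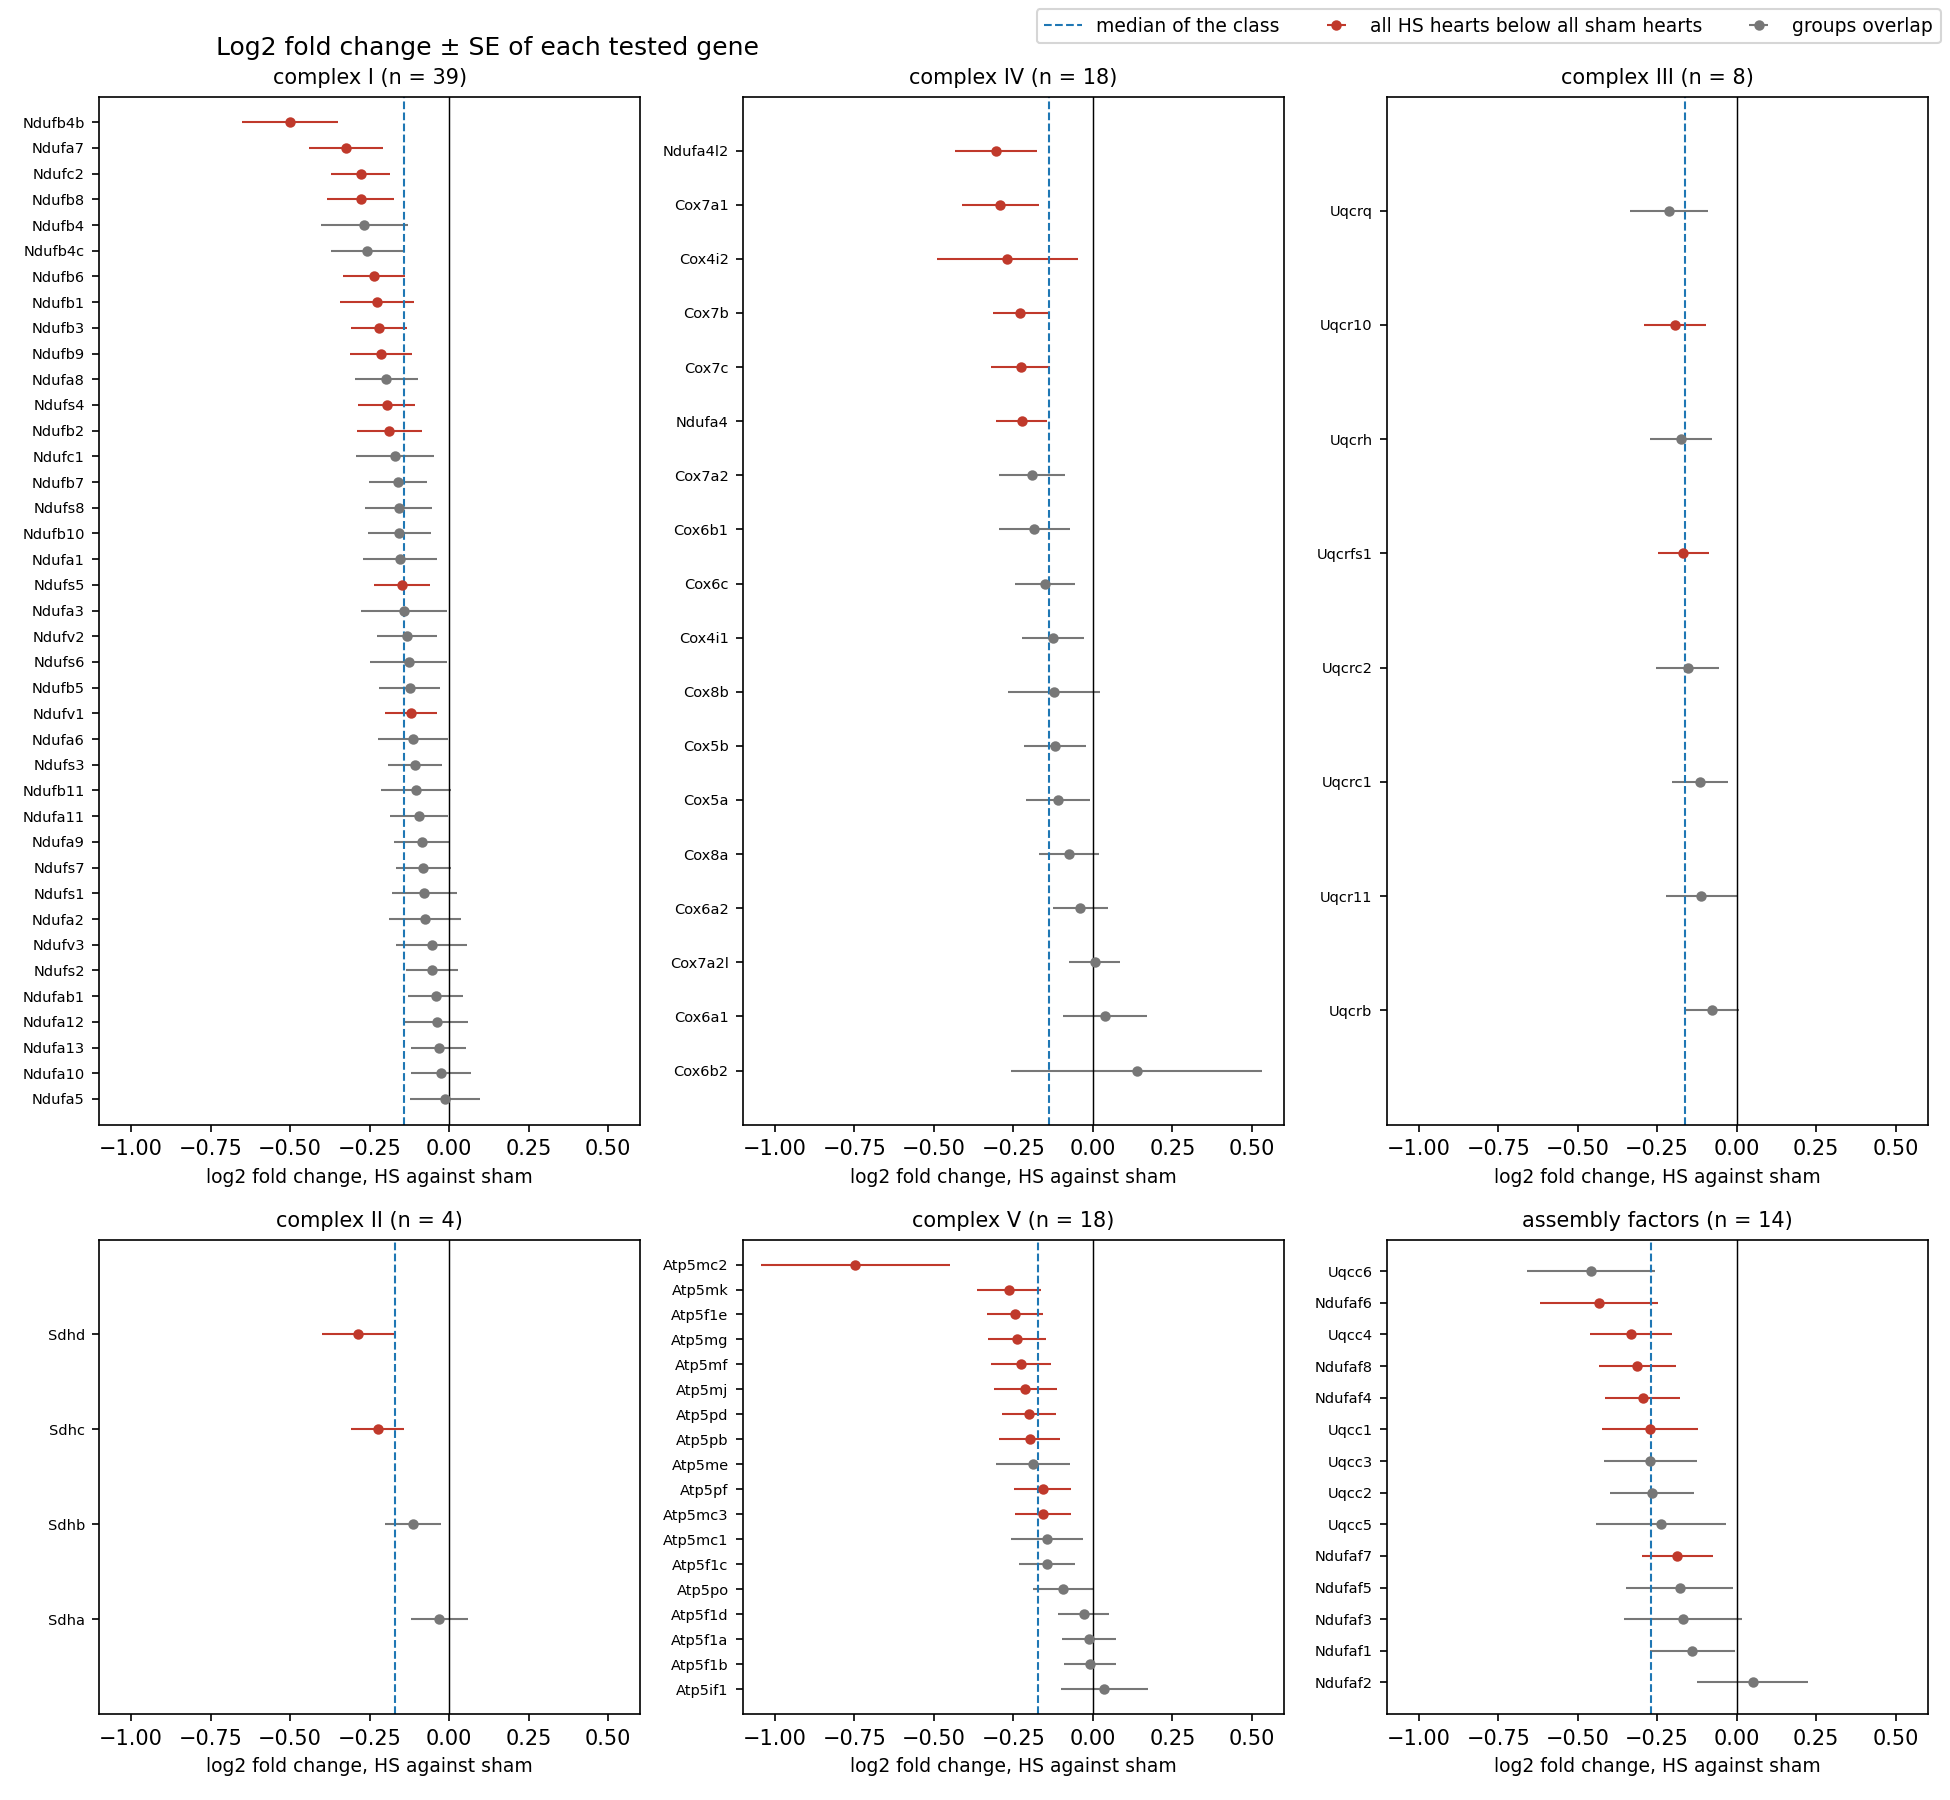
Log2 fold change of HS against sham hearts (x axis, with standard error bars) for each of the 101 tested genes, in panels by complex, with the class median as a dashed line. Red points are the 38 genes in which all 3 HS hearts lay below all 3 sham hearts. All 39 genes of complex I lie below 0, and the 5 genes above 0 are Cox6b2, Ndufaf2, Cox6a1, Atp5if1 and Cox7a2l.

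The 7 genes left out by the filter had almost no counts. Ndufa11b, Ndufb11b, Cox6c2 and Cox8c had 0 counts in every heart, which allows up to 3 counts, or 0.108 to 0.152 CPM, in a heart. Ndufs6b and a second gene ID of Atp5po (ENSMUSG00000116933) had 1 count in all. Cox7b2 had 5 counts in sham heart 1, 2 in HS heart 1 and 0 in the other hearts. The genes that were tested spanned a wide range of abundance. Per transcript length, Atp5f1b had the highest mean in sham hearts, at 2048 transcripts per 1000000 (TPM), and Cox6b2 the lowest, at 1.37 TPM.

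Summed over its genes, every class had a lower mean in HS than in sham hearts. The 108 genes together came to 26318, 26024 and 27053 CPM in sham hearts 1 to 3 and to 23003, 26258 and 23843 CPM in HS hearts 1 to 3. The HS mean was 92.1% of the sham mean, and HS heart 2 lay within the range of the sham hearts. This heart also lay within the sham range for complexes I, II, III and V, and below it for complex IV and the assembly factors. By complex, the summed HS mean lay between 90.1% of sham in complex IV and 93.9% in complex V, and it was 83.9% in the assembly factors. The 20 sarcomere genes summed to 99.98% of their sham level, but this sum was carried by Myh6, the alpha myosin heavy chain, with means of 14415 CPM in sham and 17408 CPM in HS hearts. The other 19, a set chosen after the values were seen, came to 92.7%, close to the 92.1% of the oxidative phosphorylation genes. Gene by gene the lists differed more. The sarcomere median log2 fold change was -0.05 with 8 of 20 genes above 0, against -0.16 with 5 of 101 for the oxidative phosphorylation genes.

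Complex I, the NADH dehydrogenase, had a median log2 fold change of -0.14 over 39 tested genes. This direction turned without HS hearts 1 and 3, where the median was 0.013, and with the atrial covariate, where it was 0.0086. At an unadjusted p under 0.05, 6 of the 39 genes were lower, against 4.76% of all tested genes. The 6 were Ndufb4b, Ndufc2, Ndufa7, Ndufb8, Ndufb3 and Ndufb6, all of them accessory subunits, which surround the catalytic core. Ndufc2 (ENSMUSG00000030647, chromosome 7, 97400003 to 97407802) was at 108, 100.2 and 106 CPM in sham hearts and at 88.0, 92.3 and 78.6 CPM in HS hearts. The groups did not overlap, and all 3 HS hearts including HS heart 2 were below the lowest sham heart (log2 fold change -0.28, standard error 0.09, adjusted p = 0.297). Ndufa7 (ENSMUSG00000041881, chromosome 17, 33824572 to 33838317) was at 69.0, 64.1 and 61.2 CPM in the sham group and 45.2, 59.2 and 50.7 CPM in the HS group (log2 fold change -0.33, standard error 0.12, adjusted p = 0.316). Here HS heart 2 was close to the lowest sham heart. Ndufb4b (ENSMUSG00000120425) was at 16.6, 18.7 and 16.1 CPM in the sham group and 9.74, 13.4 and 13.2 CPM in the HS group (log2 fold change -0.50, standard error 0.15, adjusted p = 0.288). The near-copies Ndufb4 and Ndufb4c, the latter annotated as a processed pseudogene, were lower by log2 values of -0.27 and -0.26. Since reads may be divided between such copies, the value of each of the 3 is uncertain. Ndufs1, which encodes an iron-sulfur protein of the NADH-oxidising arm, had the highest CPM of the complex, although not the highest level per length, which was that of Ndufb10. It was at 550.1, 554 and 562 CPM in sham hearts and 557, 564 and 457 CPM in HS hearts, so only HS heart 3 was low and the groups overlapped (log2 fold change -0.08, adjusted p = 0.743). After their values were seen, the 7 nuclear core subunits, which carry the flavin and the iron-sulfur clusters, were set beside the other 32. The core had a median log2 fold change of -0.11 with 0 genes lower at an unadjusted p under 0.05, and the accessory subunits -0.16 with 6 lower. This difference was not tested.

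The 4 genes of complex II, succinate dehydrogenase, are given by the position of their subunits. The difference between the membrane anchors and the catalytic subunits was not tested. Both membrane anchors were lower in HS hearts at an unadjusted p under 0.05, a threshold passed in this direction by 4.76% of all tested genes. Sdhc (ENSMUSG00000058076, chromosome 1, 171127165 to 171150603) was at 276, 252 and 271 CPM in sham hearts and 232, 235 and 217 CPM in HS hearts (log2 fold change -0.22, standard error 0.08, adjusted p = 0.322). Sdhd (ENSMUSG00000000171, chromosome 9, 50596357 to 50603812) was at 237, 245 and 256 CPM in sham hearts and 205, 228 and 173 CPM in HS hearts (log2 fold change -0.29, standard error 0.11, adjusted p = 0.342). For both genes all HS hearts were below all sham hearts, as in 10.9% of all tested genes. Sdha, the flavoprotein that oxidises succinate and the most abundant of the 4 mRNAs, was at 939, 958 and 957 CPM in sham hearts and 962, 988 and 843 CPM in HS hearts. HS hearts 1 and 2 were above every sham heart and HS heart 3 below them (log2 fold change -0.03, adjusted p = 0.894). Sdhb, the iron-sulfur subunit, had a log2 fold change of -0.11 with overlapping groups.

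Complex III, the cytochrome bc1 complex, had 0 of 8 genes lower at an unadjusted p under 0.05, although all 8 were below 0 and their median was -0.16. The smallest p was that of Uqcrfs1 (ENSMUSG00000038462, chromosome 13, 30540308 to 30545362), the Rieske iron-sulfur protein. It was at 440.1, 431 and 439 CPM in sham hearts and 372, 413 and 381 CPM in HS hearts, with no overlap (log2 fold change -0.17, standard error 0.08, adjusted p = 0.403). Uqcr10, a small subunit, was the only other gene of this complex whose groups did not overlap. Uqcrc2, a core protein, had the highest CPM of the 8, although per length it was at 458 TPM in sham hearts, below Uqcrh at 1015 TPM. It was at 619, 633 and 652 CPM in sham hearts and 576, 627 and 507 CPM in HS hearts. HS heart 2 lay within the sham range (log2 fold change -0.15, adjusted p = 0.504). Cyc1, which encodes cytochrome c1 of this complex, is outside the name rule and was listed with the electron carriers. Its log2 fold change was -0.13, with overlapping groups.

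Complex IV, cytochrome c oxidase, had 5 of 18 tested genes lower at an unadjusted p under 0.05, against 4.76% of all tested genes, and a median of -0.14. The 5 were Ndufa4, Cox7b, Cox7c, Cox7a1 and Ndufa4l2. Ndufa4 (ENSMUSG00000029632, chromosome 6, 11900292 to 11907497) was at 353, 355 and 361 CPM in sham hearts and 290.3, 322 and 304 CPM in HS hearts (log2 fold change -0.22, standard error 0.08, adjusted p = 0.316). Cox7b (ENSMUSG00000031231, chromosome X, 106015700 to 106022450) was at 379, 403 and 418 CPM in sham hearts and 327, 366 and 333 CPM in HS hearts (log2 fold change -0.23, standard error 0.09, adjusted p = 0.334). Cox7c (ENSMUSG00000017778, chromosome 13, 86044816 to 86046904) was at 442, 431 and 467 CPM in sham hearts and 352, 416 and 377 CPM in HS hearts (log2 fold change -0.23, standard error 0.09, adjusted p = 0.348). The products of these 3 genes are small subunits that span the membrane, and for all 3 the groups did not overlap. Cox4i1, the common form of subunit 4, had the highest CPM of the complex, while per length Cox6c was higher, at 1557 TPM in sham hearts against 1316 TPM. Cox4i1 was at 694, 709 and 756 CPM in sham hearts and 591, 714 and 675 CPM in HS hearts. Its groups overlapped through HS heart 2 (log2 fold change -0.13, adjusted p = 0.572). Cox7a2l, which takes part in joining complexes III and IV into supercomplexes, had a log2 fold change of 0.01.

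Complex V had 6 of 18 tested genes lower at an unadjusted p under 0.05, against 4.76% of all tested genes, and a median of -0.17. In 10 of the 18 all HS hearts were below all sham hearts, against 10.9% of all tested genes. Atp5f1e (ENSMUSG00000016252, chromosome 2, 174461072 to 174464105), the epsilon subunit of the F1 part, was at 124, 122 and 117 CPM in sham hearts and 93.8, 108 and 105 CPM in HS hearts (log2 fold change -0.25, standard error 0.09, adjusted p = 0.317). Atp5mg (ENSMUSG00000038717, chromosome 9, 44912557 to 44920742), subunit g of the membrane part, was at 309, 321 and 321 CPM in sham hearts and 245, 271 and 289 CPM in HS hearts (log2 fold change -0.24, standard error 0.09, adjusted p = 0.330). Atp5mk (ENSMUSG00000071528, chromosome 19, 47083464 to 47090647), another small membrane subunit, was at 204, 207 and 209 CPM in sham hearts and 155, 193 and 168 CPM in HS hearts (log2 fold change -0.26, standard error 0.10, adjusted p = 0.332). The highest HS heart was HS heart 3 for Atp5mg and HS heart 2 for Atp5f1e and Atp5mk, and none reached a sham heart. The other genes lower at this threshold were Atp5mc2, Atp5mf and Atp5pd. Atp5mc2, which encodes the same mature c subunit of the rotor ring as Atp5mc1 and Atp5mc3, was at 1.60, 1.26 and 1.93 CPM in sham hearts and 1.15, 0.908 and 0.762 CPM in HS hearts, and per length it was at 3.09 TPM in sham hearts against 851 TPM for Atp5mc1 and 1318 TPM for Atp5mc3. By contrast, the beta subunit Atp5f1b, which holds the catalytic sites and was the most abundant mRNA of all 108, was at 2605, 2498 and 2627 CPM in sham hearts and 2450, 2637 and 2601 CPM in HS hearts. The groups overlapped fully (log2 fold change -0.01, standard error 0.08, adjusted p = 0.970). The alpha subunit Atp5f1a also had a log2 fold change of -0.01. The inhibitor of the reverse reaction, Atp5if1, was the only tested gene of complex V above 0, at 0.04.

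**Figure D2:**
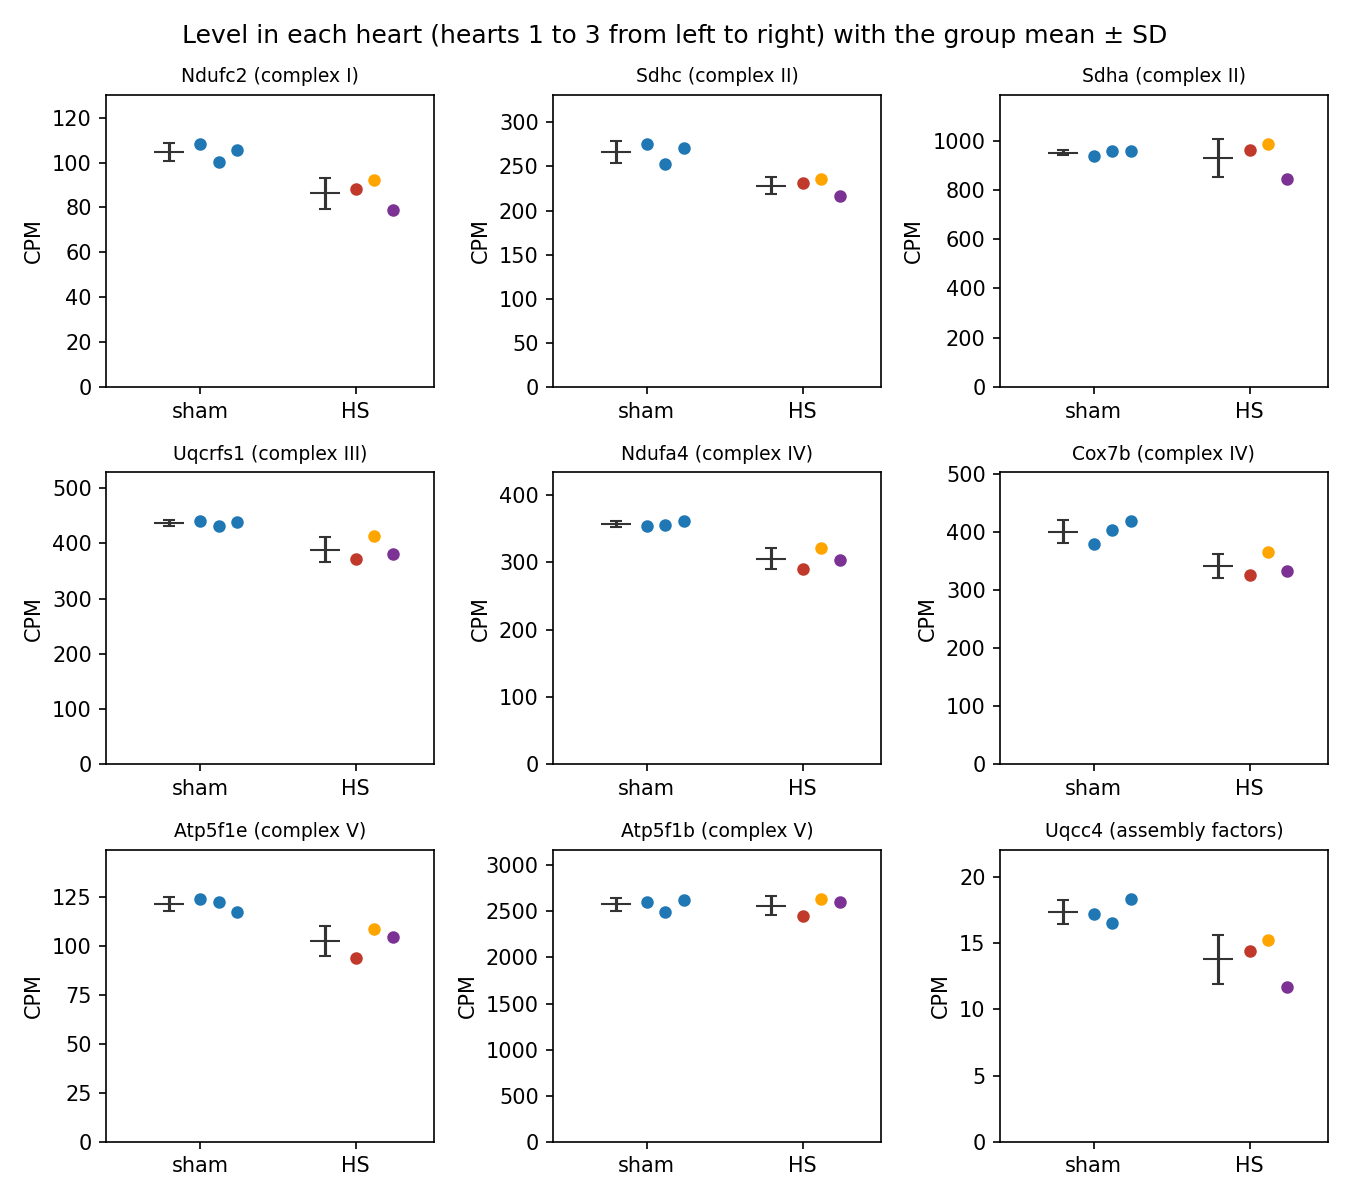
Level in CPM (y axis, from 0) of 9 genes in each sham heart (blue) and HS heart (red, orange and purple for HS hearts 1, 2 and 3), with the mean and SD of each group of 3 hearts. The groups overlap for Sdha and Atp5f1b and do not for the other 7 genes.

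Assembly factors had the lowest median of the 6 classes, at -0.27 over 14 tested genes. Of these, 4 were lower at an unadjusted p under 0.05, against 4.76% of all tested genes, namely Uqcc4, Ndufaf8, Ndufaf4 and Ndufaf6. Uqcc4 (ENSMUSG00000067722, chromosome 17, 25184554 to 25187662), which acts in the assembly of complex III, was at 17.2, 16.5 and 18.3 CPM in sham hearts and 14.4, 15.2 and 11.7 CPM in HS hearts (log2 fold change -0.33, standard error 0.13, adjusted p = 0.334). The complex I assembly factor Ndufaf8 (ENSMUSG00000078572, chromosome 11, 120098928 to 120100705) was at 8.45, 9.11 and 8.54 CPM in sham hearts and 7.04, 7.34 and 6.61 CPM in HS hearts (log2 fold change -0.31, standard error 0.12, adjusted p = 0.334). Ndufaf4 (ENSMUSG00000028261, chromosome 4, 24898083 to 24905001) was at 78.7, 83.9 and 79.6 CPM in sham hearts and 68.0, 74.1 and 55.2 CPM in HS hearts (log2 fold change -0.30, standard error 0.12, adjusted p = 0.344). In all 3 genes HS heart 3 was the lowest. Uqcc1, the most abundant of the class, was at 120, 122 and 134 CPM in sham hearts and 113, 118 and 80.1 CPM in HS hearts, so that HS hearts 1 and 2 lay just under the sham range and HS heart 3 far under it (log2 fold change -0.27, standard error 0.15, adjusted p = 0.451).

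The 3 HS hearts did not share the lower level equally. Relative to the mean of the sham hearts, the median log2 difference over the 101 genes was -0.27, -0.02 and -0.19 in HS hearts 1 to 3, while the single sham hearts lay between -0.02 and 0.03. HS heart 1 was below all 3 sham hearts for 97 genes, HS heart 3 for 86 and HS heart 2 for 42. Over all tested genes these shares were 31.9, 40.1 and 29.4%. HS heart 2 was the highest of the 3 HS hearts for 87 genes. HS heart 1 was the lowest of all 6 hearts for 68 genes and HS heart 3 for 31. The order of the hearts differed between classes, since HS heart 1 was the lowest for 31 of the 39 genes of complex I and HS heart 3 for 10 of the 14 assembly factors. Medians of the assembly factors stood at -0.27, -0.07 and -0.44 in these hearts in turn. HS hearts 1 and 3, which had the low values, are also those with high atrial markers. The part of these markers in the values was not tested. The fit with the atrial covariate gives only the group difference, which it tells from the markers through HS heart 2 alone.

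**Figure D3:**
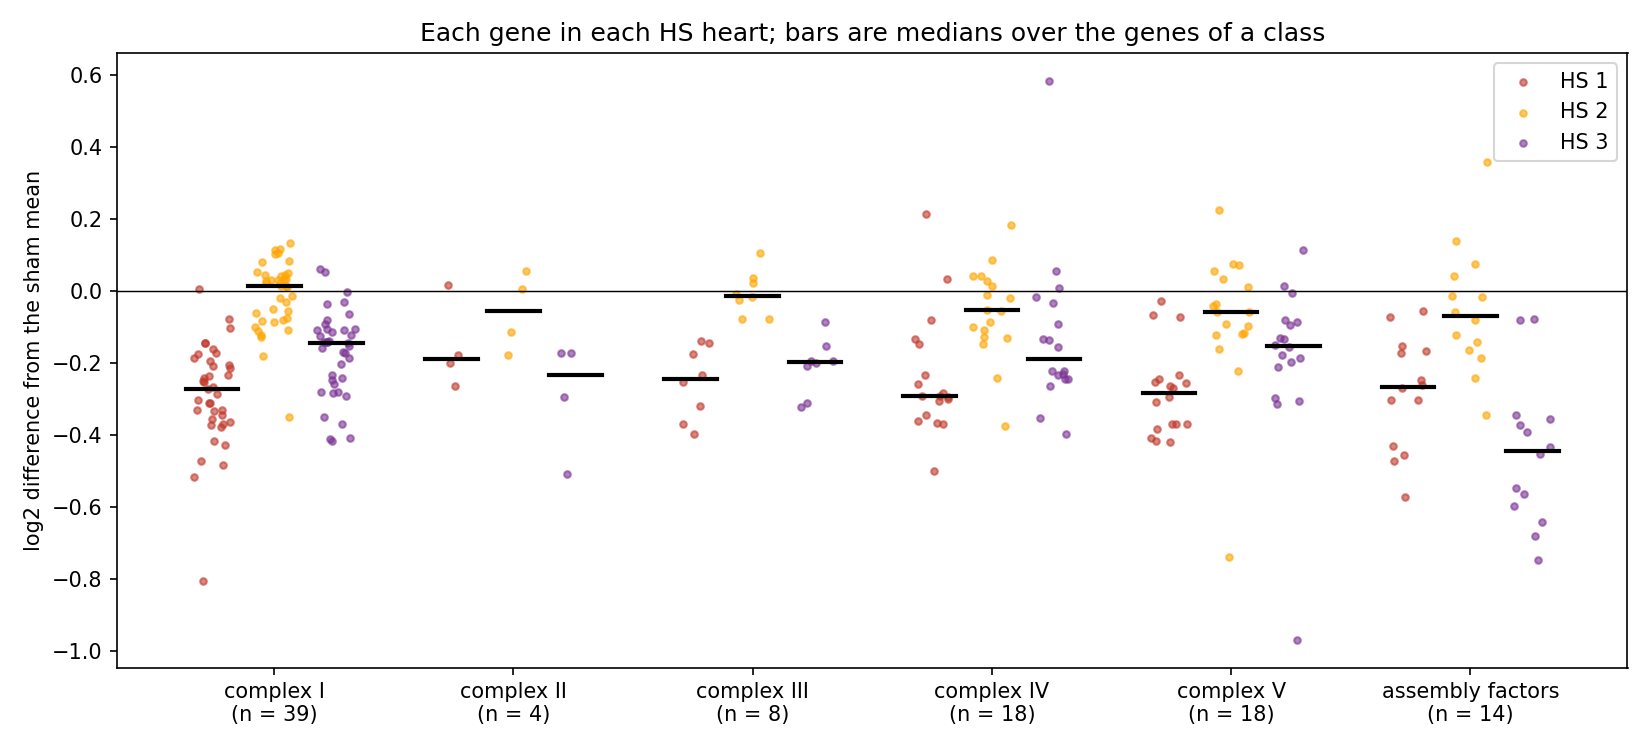
Log2 difference of each tested gene from the mean of the sham hearts (y axis) in HS hearts 1, 2 and 3 (red, orange and purple), by class, with the median over the genes of a class as a black bar. The bars of HS heart 2 lie closest to 0 in every class, between -0.07 and 0.01, and the lowest bar is that of the assembly factors in HS heart 3, at -0.44.

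The heart medians of related gene lists were set beside these values. The 20 sarcomere genes had medians of -0.11, 0.00 and -0.08 in HS hearts 1 to 3, and the 17 genes of the citric acid cycle, which feeds electrons to complexes I and II, had -0.08, 0.02 and -0.27. The 13 subunits encoded by the mitochondrial genome had -0.23, -0.03 and 0.36, so in HS heart 3 they lay above the sham hearts while the nuclear subunits lay below them. At an unadjusted p under 0.05, the mitochondrial mt-Nd6 and mt-Nd5, both subunits of complex I, were lower by log2 values of -0.34 and -0.32 (adjusted p = 0.273 and 0.303), and 0 of the 13 were higher. Beside the 4.76% of all tested genes that were lower at this threshold, the counts in the other lists were small, and 1 or 2 genes decide them. Of the 39 tested assembly factors with other names, 3 were lower, namely Sdhaf4 (-0.45), Coa3 (-0.32) and Cox19 (-0.28), and 0 were higher. Of 22 electron and nucleotide carriers, cytochrome c (Cycs, -0.23) and Coq2 (-0.21), an enzyme of ubiquinone synthesis, were lower and 0 were higher. Of the 20 sarcomere genes, Myl2 (-0.35), Myl3 (-0.28) and Tnnc1 (-0.21) were lower and 0 were higher. Of the 17 citric acid cycle genes and of 15 regulators of mitochondrial biogenesis, 0 passed in either direction. Among the regulators the values were -0.15 for Ppargc1a, which encodes the coactivator PGC-1alpha, and -0.25 for Tfam, a transcription factor of the mitochondrial genome, (adjusted p = 0.666 and 0.428). The groups overlapped for Ppargc1a, and for Tfam the highest HS heart lay just below the lowest sham heart.

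**Figure D4:**
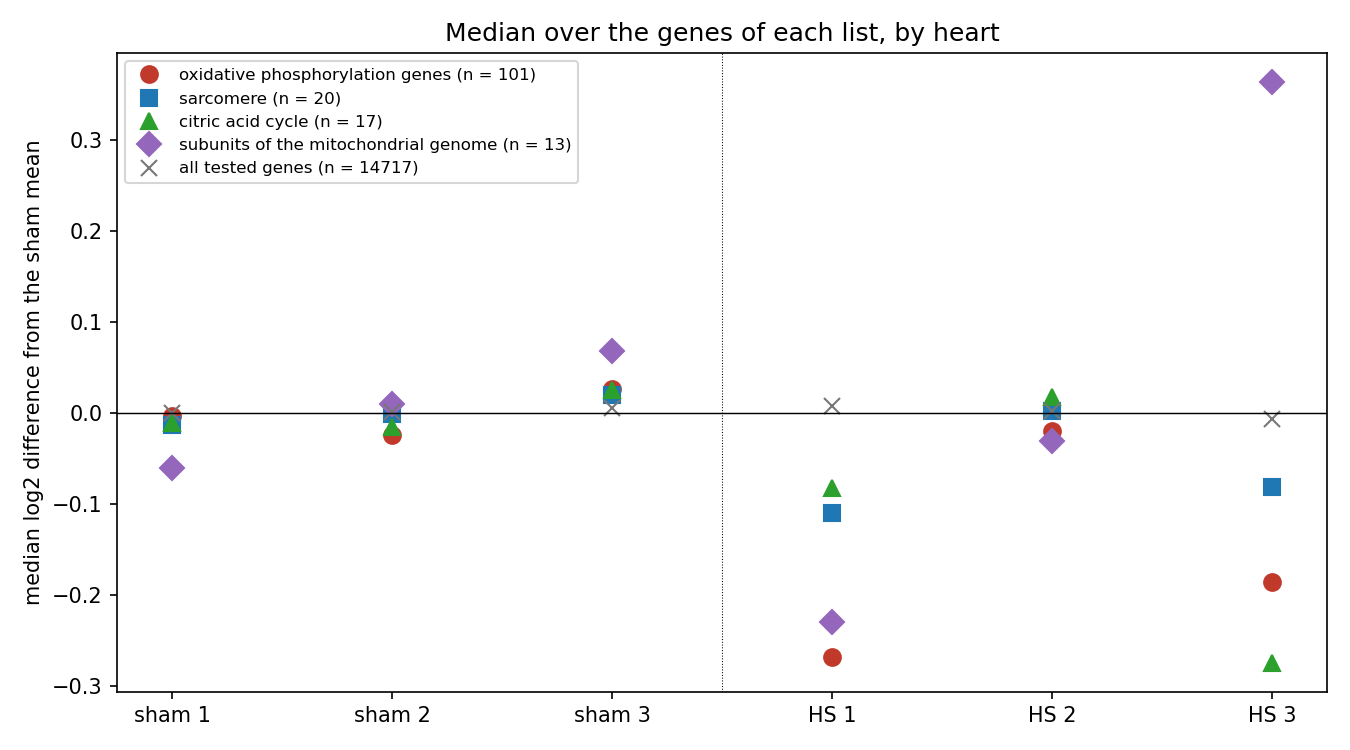
Median log2 difference to the mean of the sham hearts (y axis) over the tested genes of 4 lists and over all 14717 tested genes, in each of the 6 hearts. All lists lie within 0.07 of 0 in the sham hearts and HS heart 2, and the subunits of the mitochondrial genome lie at -0.23 in HS heart 1 and 0.36 in HS heart 3.

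Most of these mRNAs are short, with a median length of 759 bases, against 2864 bases over all tested genes. All tested genes under 500 bases had a median log2 fold change of -0.12, and by heart -0.22 in HS heart 1 but 0.05 and 0.01 in HS hearts 2 and 3. Genes of 500 to 700 bases had a median log2 fold change of -0.11, those of 700 to 1000 bases -0.11, those of 1000 to 1500 bases -0.09 and those of 1500 bases and over 0.04. The oxidative phosphorylation genes in the same ranges had medians of -0.20, -0.14, -0.21, -0.15 and -0.12. Across the members, Spearman's rho between the log2 fold change and length was 0.07, and in HS heart 1 alone the rho of its difference with length was 0.49, against 0.02 and -0.12 in HS hearts 2 and 3. Over all tested genes rho was 0.25, and by heart 0.29, 0.15 and 0.16 in HS hearts 1 to 3. The coefficients of the members are across 100 genes. All genes share the same libraries, so every coefficient here is a description only. The part of length in the lower level was not tested.

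Tissue-specific isoforms of complex IV kept to the pattern of adult heart muscle in both groups. In rodents, Cox6a2, Cox7a1 and Cox8b are the forms of heart and skeletal muscle, and Cox6a1, Cox7a2 and Cox8a are found in most tissues. Per length, Cox6a2 was at 1197 TPM in sham and 1134 TPM in HS hearts and Cox6a1 at 41.0 and 41.5 TPM. Cox8b was at 522 and 468 TPM and Cox8a at 82.3 and 76.7 TPM, while Cox7a1, at 785 and 624 TPM, was nearer to Cox7a2, at 368 and 313 TPM. Cox7a1 itself was at 227, 230.2 and 225 CPM in sham hearts and 161, 219 and 178 CPM in HS hearts, without overlap (log2 fold change -0.29, standard error 0.12, adjusted p = 0.355). Ndufa4l2, a form induced under low oxygen, was at 6.90, 7.51 and 7.51 CPM in sham hearts and 5.95, 5.61 and 6.20 CPM in HS hearts, lower in all 3 HS hearts (log2 fold change -0.30, standard error 0.13, adjusted p = 0.362). Cox4i2, the form of subunit 4 best known from lung, was at 2.15, 2.10 and 2.71 CPM in sham hearts and 2.09, 1.94 and 1.73 CPM in HS hearts, and Cox6b2, best known from testis, at no more than 0.762 CPM in any heart.

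The log2 ratio of the 2 genes of a pair within a heart was compared between the groups for 6 pairs. The difference of HS minus sham was 0.07 for Cox6a1 to Cox6a2, 0.11 for Cox7a2 to Cox7a1, 0.06 for Cox8a to Cox8b, -0.13 for Cox4i2 to Cox4i1, -0.08 for Ndufa4l2 to Ndufa4 and 0.30 for Cox6b2 to Cox6b1. The exact two-sided permutation p over hearts lay between 0.4 and 0.9 (adjusted over the 6 pairs, 0.75 to 0.9), and 0.1 is the smallest that 3 against 3 hearts can give. No shift between isoforms larger than the spread of the hearts was detectable with this design. For Cox8a to Cox8b the ratio was -1.65, -2.35 and -1.96 in HS hearts 1 to 3 and -2.17 to -1.93 in sham hearts, so the HS hearts lay on both sides of the sham hearts.

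At the level of single transcripts, larger differences were found in a few minor forms that keep an intron. The table holds 478 transcripts of these genes, of which 272 from 100 genes passed the filter. Of these, 0 reached an adjusted p of 0.05 in edgeR over all 30933 tested transcripts, of which 0.0226% did. At an unadjusted p under 0.05, 36 were lower and 6 were higher, or 13.2 and 2.21%, against 3.88 and 5.73% of all tested transcripts. Without HS heart 2 the lower transcripts numbered 68 (24.1%, against 4.91% of all), and without HS heart 3 they numbered 35 (12.4%, against 5%). They numbered 13 without HS heart 1 (4.64%, against 3.94%) and 12 without any one sham heart (4.24 to 4.32%, against 2.10 to 2.42%), so that most of the 36 were not called in these fits. Protein-coding transcripts made up 95.0 to 95.7% of the counts in every heart. The transcript with the smallest p was Cox6c-202 (ENSMUST00000127999, chromosome 15, 35931983 to 35938207, minus strand), a form of Cox6c with introns 1 and 2 retained. It was at 7.85, 7.95 and 8.22 CPM in sham hearts and 2.37, 2.38 and 2.17 CPM in HS hearts (log2 fold change -1.79, standard error 0.17, adjusted p = 0.0662, with 0.0398 where at least 10 counts were required in every heart and 0.0748 to 0.621 on the other alternatives). The 3 HS hearts lay close together, HS heart 2 included. Among the counts of Cox6c its share was 1.32 to 1.41% in the sham group and 0.385 to 0.497% in the HS group, while Cox6c as a whole had a log2 fold change of -0.15. Where a transcript must be told from others of its gene by a few bases, its estimated count depends on the assignment of shared reads, so these values are less certain than sums per gene.

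The border between the coding exon and the retained intron is shown for the 3 lower forms with the smallest p that retain a whole intron, since reads across it tell such a form from the spliced mRNA. Exon bases are in lower case and the first 60 bases of the intron in capitals, 5′ to 3′ on the strand of the gene, from GENCODE vM21 on GRCm38.
Cox6c-202, intron 2, chr15:35937095-35937184, minus strand: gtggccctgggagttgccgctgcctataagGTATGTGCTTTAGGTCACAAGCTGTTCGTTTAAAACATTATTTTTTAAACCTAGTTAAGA
Atp5b-208, intron 3, chr10:128084442-128084531, plus strand: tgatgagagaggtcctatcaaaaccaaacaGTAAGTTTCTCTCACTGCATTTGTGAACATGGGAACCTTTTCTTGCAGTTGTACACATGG
Cox5b-202, intron 1, chr1:36691660-36691749, plus strand: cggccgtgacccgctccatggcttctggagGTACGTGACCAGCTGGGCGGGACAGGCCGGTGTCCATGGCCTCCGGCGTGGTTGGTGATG
All 3 introns open with GT, the usual start of an intron.

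The other named transcripts were also forms with retained intron sequence. Atp5b-208 of Atp5f1b (ENSMUST00000139295) was at 2.92, 2.49 and 3.07 CPM in sham hearts and 0.364, 0.158 and 0.807 CPM in HS hearts (log2 fold change -2.68, standard error 0.58, adjusted p = 0.264). Cox5b-202 of Cox5b (ENSMUST00000191790) was at 2.20, 1.52 and 1.77 CPM in sham hearts and 0.656, 0.594 and 0.403 CPM in HS hearts (log2 fold change -1.72, standard error 0.37, adjusted p = 0.265). In both, each HS heart was below each sham heart. Atp5b-202 of Atp5f1b (ENSMUST00000123803) went the other way, from 0.841, 1.23 and 0.866 CPM in sham hearts to 2.62, 2.53 and 2.37 CPM in HS hearts (log2 fold change 1.36, standard error 0.30, adjusted p = 0.276). Atp5a1-205 of Atp5f1a (ENSMUST00000146869) had 0, 2 and 2 counts in sham hearts and 76, 58 and 27 counts in HS hearts (adjusted p = 0.177). The genes of the latter 2 transcripts had log2 fold changes of -0.01, so a higher minor form stood beside an equal total. Over all 53 tested transcripts of these genes annotated as retained introns, 7 were lower and 4 higher at an unadjusted p under 0.05, against 6.60 and 8.78% of all 4636 such transcripts, and their summed share of the members' counts was 1.10 to 1.21% in the sham group and 1.11, 1.30 and 1.15% in HS hearts 1 to 3.

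**Figure D5:**
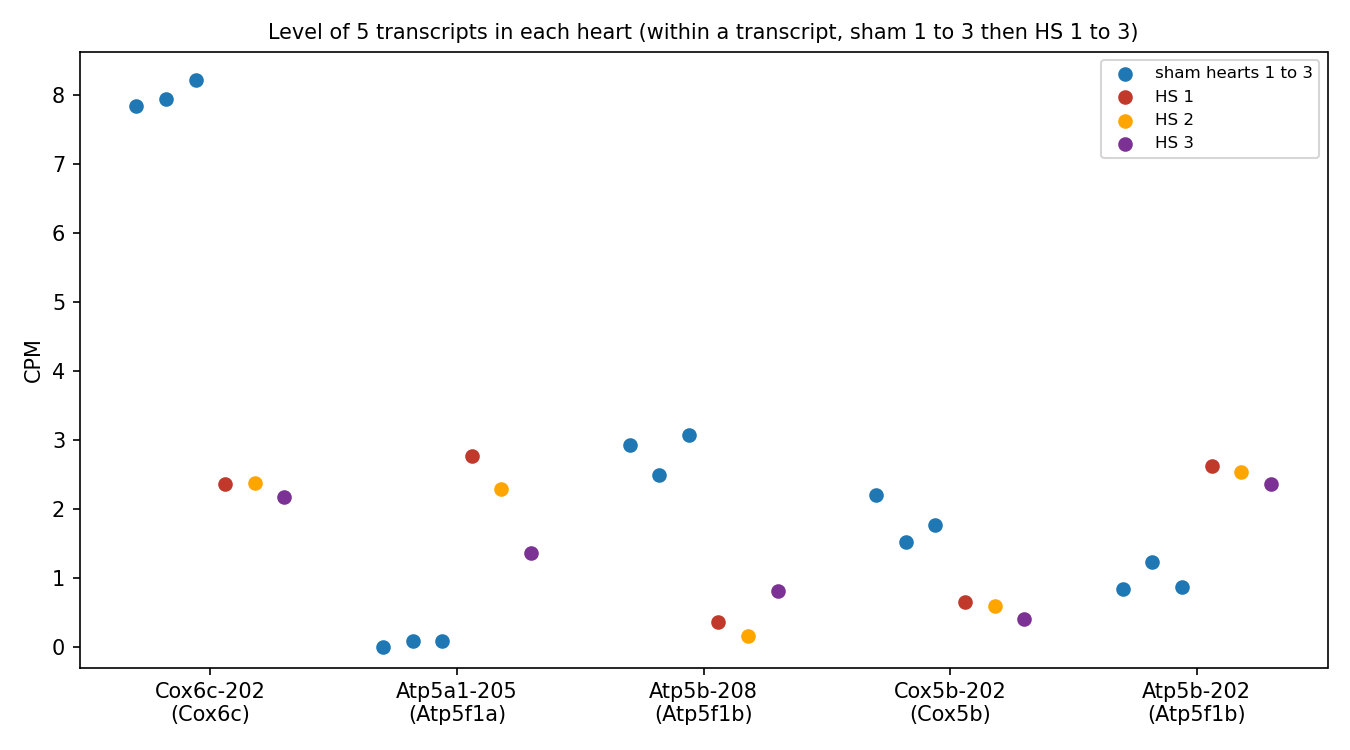
Level in CPM (y axis) of the 5 transcripts with the smallest p, each with the 3 sham hearts (blue) to the left and HS hearts 1, 2 and 3 (red, orange and purple) to the right. Cox6c-202 lies at 7.85 to 8.22 CPM in sham hearts and at 2.17 to 2.38 CPM in HS hearts, and within each of the 5 transcripts the groups do not overlap.

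Promoters were examined for short motifs of factors known to act on these genes. RefSeq (GRCm38.p6) held a window of 250 bases before to 50 after the start for 84 of the 108 genes. The NRF1 motif GCGCATGC was found on either strand in 12 of them (14.3%), against 3.05% of all genes with a window and 5.83% of the tested genes among them. The ETS motif CCGGAAG, bound by GABPA, was found in 20 (23.8%, against 9.93 and 19.3%), the YY1 motif AAGATGGCG in 8 (9.52%, against 1.64 and 3.47%) and the ERR motif TCAAGGTCA in 2 (2.38%, against 0.466 and 0.311%). None of these motifs contains another. The 12 tested genes with the NRF1 motif had a median log2 fold change of -0.15 and the 70 without it -0.16, and the 20 with the ETS motif had -0.18 against -0.15 for the 62 without. A match is a run of letters and says nothing of binding. Parts of 3 windows are printed to show where the motifs, in capitals, stood before the start. They belong to Cox6a1, in which both the NRF1 and the ETS motif occurred and which was not lower in HS hearts (log2 fold change 0.04), and to Uqcc4 and Uqcrh, with an ETS motif each and log2 fold changes of -0.33 and -0.18. All end at the last base before the start. In Cox6a1, capitals run on over 2 overlapping matches on opposite strands.
Cox6a1, chr5:115348959-115349140, minus strand: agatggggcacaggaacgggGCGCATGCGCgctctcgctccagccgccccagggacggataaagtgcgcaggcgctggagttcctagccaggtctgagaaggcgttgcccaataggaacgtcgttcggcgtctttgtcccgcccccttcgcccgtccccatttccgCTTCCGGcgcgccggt
Uqcc4, chr17:25184523-25184560, plus strand: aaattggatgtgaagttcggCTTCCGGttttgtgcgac
Uqcrh, chr4:116075071-116075100, minus strand: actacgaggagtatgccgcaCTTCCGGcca
In all 3 genes the ETS motif lay on the strand opposite to the gene.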

How the data were processed

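Poly(A)-selected RNA of 3 sham and 3 HS hearts was sequenced, and the groups were taken from the sample titles. Reads were cleaned by the authors (fastp) and mapped (Hisat2). The deposited values are estimated counts per transcript, not normalized, of which 30.3% are not whole. The genome build named in the submitters' processing notes is mm10. Tool versions, the counting program, the handling of strand and the annotation used for counting are not stated in the sources used here.

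Estimated counts of 149132 transcripts were summed per gene ID (57180) and rounded. Genes passing filterByExpr (minimum count 10, minimum total 15) were normalized by TMM and tested by quasi-likelihood F-tests in edgeR 4.0.16 (R 4.3.3, robust estimation, group as the only term) with Benjamini-Hochberg adjustment over all 14717 genes. The study's own comparison used DESeq2. Log2 CPM used a prior count of 2, and a difference by heart is its log2 CPM minus the sham mean. TPM took each transcript's count over its vM21 length, summed per gene, and a gene's length is the mean of its transcripts' lengths weighted by counts. The numbers of the labels name biosamples, and p-values set the difference between the groups against the spread between these hearts. Limits from a count of 0 cover counting error only. The biological coefficient of variation was 0.204, and groups of 3 limit the precision.

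Coordinates and transcript types are of GENCODE vM21 (GRCm38, the assembly also named mm10), which lacks Ndufb4b. Named genes are, per class, up to 3 with the smallest unadjusted p under 0.05 in each direction (else the smallest p), the gene with the highest mean CPM and both genes of 6 isoform pairs, and of the transcripts the 5 with the smallest p. Members, lists and motifs were chosen with earlier results of these data known. Other genes named, the division into core and other subunits, and the sarcomere sum without Myh6 were chosen after their values were seen. DESeq2 1.42.0, limma 3.58.1, Python 3.11.15, pandas 2.3.3 and matplotlib 3.10.9 were also used. Alternatives were other scalings, filters and tests, a replicate block, an atrial covariate and leaving out hearts. The study's rat, patient, cell and ZG-10 data were not analysed here.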

Additional observations from a re-analysis of the deposited data

How the results depend on the processing

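Members at an adjusted p under 0.05 numbered 0 under each alternative run. At an unadjusted p under 0.05, 23 were lower, and 14 were with library size only, 45 with limma-voom and sample quality weights, 7 with a replicate block, 5 without HS hearts 1 and 3 and 0 with the atrial covariate, beside 3.93, 7.13, 3.83, 5.76 and 1.75% of all genes. Leaving out 1 heart gave 1 to 54 members lower. The count was 1, 4 and 3 without sham replicates 1 to 3, and 4, 54 and 27 without HS replicates 1 to 3, the highest being without the HS heart closest to sham. Members higher numbered 0, and 2 without HS hearts 1 and 3. The replicate numbers were not taken as pairs. The correlations of same-numbered deviations were -0.06, 0.13 and 0.01, and those of other numbers ran from -0.15 to 0.13. With so few hearts these values cannot decide whether the numbers pair the hearts. Without HS hearts 1 and 3, the spread of the single HS heart is taken to equal that of the sham hearts.

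The medians kept their sign under every other scaling, filter and test. Without HS hearts 1 and 3 the median was -0.026 over all members, 0.013 in complex I, -0.055 in complex II, -0.013 in complex III, -0.054 in complex IV, -0.058 in complex V and -0.069 in the assembly factors. With the atrial covariate these were -0.029, 0.0086, -0.060, -0.013, -0.057, -0.057 and -0.075. The sign turned in complex I in both. With library size only, the median of HS heart 3 was -0.37, and that of all genes in this heart was then -0.19. Over all genes, 9 changed, and 16 did with library size only, 84 with no filter, 4 with at least 10 counts in every heart, 351 with DESeq2, 49 with limma-voom and sample quality weights, 109 without HS hearts 1 and 3, and 2 to 287 on leaving out 1 heart, 287 without HS replicate 2.

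With at least 10 counts in every heart, 1 member transcript passed the adjusted threshold, Cox6c-202 (log2 fold change -1.79, adjusted p = 0.0398), for which the other alternatives gave 0.0748 to 0.621. Transcripts lower at an unadjusted p under 0.05 numbered 36, 13 with the replicate block and 12 to 68 on leaving out 1 heart, and those higher 6, and 3 to 8 on leaving out 1 heart.

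Of the named genes, 8 turned sign under some alternative, none of them past the adjusted threshold. Without HS hearts 1 and 3, and with the atrial covariate, they were 0.023 and 0.016 for Ndufs1, 0.056 and 0.053 for Sdha, 0.033 and 0.026 for Atp5f1b, 0.040 and 0.039 for Cox6a2, 0.18 and 0.16 for Cox8b, -0.035 and -0.012 for Cox6b2, and 0.014 and 0.0052 for Cox6b1. With limma-voom and sample quality weights, Sdha was at 0.0096 and Cox6b2 at -0.063. On leaving out 1 heart, the sign turned without HS replicate 3 for Ndufs1 (range over the 6 fits -0.13 to 0.014), Sdha (-0.079 to 0.036) and Cox6b2 (-0.16 to 0.32), without sham replicate 3 and without HS replicate 1 for Atp5f1b (-0.038 to 0.018) and Cox6a1 (-0.064 to 0.15), and without HS replicate 1 for Cox6a2 (-0.085 to 0.0062). The cause of these differences was not tested. Groups of 3 hearts limit the precision, and members under 1 CPM rest on few counts.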
